A study of Mus musculus with 7 samples.

Results

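The genes described here are 7 cadherins of epithelial and mesenchymal cells: Cdh1 (E-cadherin), Cdh3 (P-cadherin), Cdh2 (N-cadherin), Cdh4 (R-cadherin), Cdh6 (K-cadherin), Cdh11 (OB-cadherin) and Cdh13 (T-cadherin). They were chosen by gene symbol, with no measured value entering the choice, out of 38579 gene entries in the deposited table, and each symbol occurred in 1 row. RNA was sequenced from primary mouse fetal mammary cells of the CD1 strain taken late in gestation (E17.5), with 7 libraries made straight from the sort. The study examined a pair of sorting strategies, each giving a fraction labelled fetal mammary stem cells (fMaSC) and a fraction labelled fetal mammary stroma. Sorting on surface CD24 and CD49f (integrin alpha-6) gave the CD24+CD49f+ fMaSC (2 libraries) and the CD24low stroma (2 libraries), each depleted of cells with lineage markers (Lin-). Sorting on a Sox10-Venus reporter together with EpCAM gave 2 Sox10+EpCAM+ fMaSC libraries, and a single library of EpCAM-negative cells, titled as Sox10- and Lin-, stands for the stroma of that strategy. No other allele or treatment is given for the 4 groups, and the number of embryos behind each library is not given in the sources used here. Below, the CD24 sort means the comparison of fMaSC with stroma in the first strategy, and the Sox10 sort means the same comparison in the second.

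Cadherins are calcium-dependent adhesion proteins whose outer domains bind cadherins on neighbouring cells. The classical members, of type I (Cdh1, Cdh2, Cdh3 and Cdh4) and type II (Cdh6 and Cdh11), hold beta-catenin and p120-catenin on their inner tails, and alpha-catenin links the complex to actin. Cdh13 is an atypical member that is anchored in the membrane by a lipid and lacks the tail that binds catenins. In the mammary gland Cdh1 is the main cadherin of luminal cells, Cdh3 marks basal and myoepithelial cells, and Cdh2 and Cdh11 are usual cadherins of mesenchymal cells.

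In the GRCm38 build, with GENCODE vM21 annotation, 4 of the 7 genes lie on chromosome 8. Cdh3 (chr8:106510891-106557297, plus strand) and Cdh1 (chr8:106603351-106670246, plus strand) are neighbours, with 46053 bases and 2 annotated genes between them. Cdh11 (chr8:102632095-102785642, minus strand) and Cdh13 (chr8:118283733-119324921, plus strand) are farther away on the same chromosome. Cdh2 lies on chromosome 18, Cdh4 on chromosome 2 (chr2:179442431-179899373, plus strand) and Cdh6 on chromosome 15 (chr15:13028701-13173675, minus strand). Within Cdh2, Cdh4, Cdh11 and Cdh13 the annotation holds other genes, but no exon of any of the 7 cadherins overlaps an exon of another gene.

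The values are FPKM, fragment counts scaled to transcript length and to library depth, so that levels of different genes can be set side by side. Depth estimated from the steps between low values was between 24.5 M and 37.0 M fragments per library, and summed FPKM ran from 378952 to 752737. Of the 6 epithelial markers (Epcam, Krt8, Krt18, Krt14, Krt5 and Sox10), all 6 reached 1 FPKM in every fMaSC library. Their summed level was 325 to 830 FPKM in fMaSC against 2.59 to 5.96 FPKM in stroma. Epcam and Sox10 are also the markers sorted on in the second strategy, so their separation there was set by the sort. The 7 fibroblast markers summed to 5884 to 6862 FPKM in the stroma libraries, to 1906 and 3084 FPKM in CD24+CD49f+ fMaSC, and to 40.9 and 68.9 FPKM in Sox10+EpCAM+ fMaSC. The CD24+CD49f+ fraction thus carried RNA of fibroblast genes beside its epithelial RNA. It also held more RNA of other cell types than Sox10+EpCAM+ fMaSC. The 4 erythroid markers summed to 2873 and 305 FPKM in CD24+CD49f+ fMaSC against 37.9 to 87.8 FPKM elsewhere. The 4 adipocyte markers summed to 496 and 161 FPKM there against 11.8 and 17.1 FPKM in Sox10+EpCAM+ fMaSC, and the 4 pericyte markers to 36.9 and 25.6 FPKM against 6.17 and 8.80 FPKM. These values stand beside every comparison that uses the CD24+CD49f+ fraction, and their part in the cadherin levels was not tested. For replicate 1 of Sox10+EpCAM+ fMaSC, lineage depletion is named in the column name and not in the label.

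Cdh1 was the most abundant of the 7 cadherins in both Sox10+EpCAM+ fMaSC libraries. Its level was 48.9 and 60.3 FPKM in Sox10+EpCAM+ fMaSC and 23.7 and 30.1 FPKM in CD24+CD49f+ fMaSC. In stroma it was 0.597 FPKM in the EpCAM-negative library and 0.435 and 0.178 FPKM in the CD24low libraries. Every fMaSC library stood far above every stroma library, and the Sox10+EpCAM+ libraries stood above the CD24+CD49f+ libraries.

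**Figure D1:**
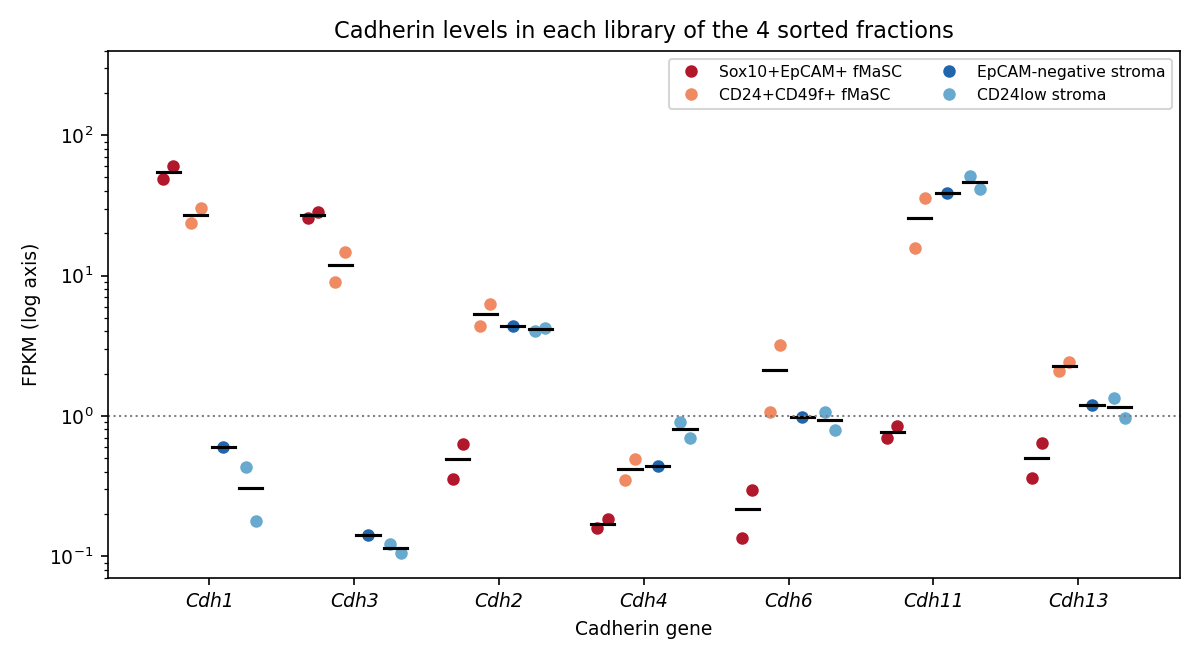
FPKM (log axis) of each of the 7 cadherin genes, with a point for each library, a black bar at each group's mean and a dotted line at 1 FPKM. Cdh1 and Cdh3 separate all fMaSC libraries from all stroma libraries. For Cdh2, Cdh4, Cdh6, Cdh11 and Cdh13 the Sox10+EpCAM+ fMaSC libraries lie below all others, with the widest gaps for Cdh11 and Cdh2. Cdh4 stays under 1 FPKM in each library.

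Cdh3 followed the same order at a lower level. In Sox10+EpCAM+ fMaSC it measured 25.7 and 28.3 FPKM, with 8.95 and 14.8 FPKM in CD24+CD49f+ fMaSC, 0.141 FPKM in EpCAM-negative stroma, and 0.122 and 0.105 FPKM in CD24low stroma. The stromal values correspond to only about 11.3 to 17.0 fragments per library by the approximate depths, so that their order is not resolved at this depth. The ratio of Cdh1 to Cdh3 was 1.90 and 2.13 in Sox10+EpCAM+ fMaSC and 2.64 and 2.03 in CD24+CD49f+ fMaSC, so that the ranges of both fractions overlapped.

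Both genes passed the filter (1 FPKM or more in at least 2 libraries) only through the fMaSC libraries in which they are high, so the calls below describe them and add no independent support. They were called higher in fMaSC (adjusted p under the threshold of 0.05, over all genes tested) whichever sort was used. In limma on log2(FPKM + 1), where the added 1 shrinks the change of low genes, the difference for Cdh1 was 4.41 (SE 0.21, adjusted p = 0.000396) in the CD24 sort and 5.11 (SE 0.26, adjusted p = 0.000276) in the Sox10 sort. For Cdh3 it was 3.49 (SE 0.25, adjusted p = 0.000943) and 4.62 (SE 0.30, adjusted p = 0.000387). The stroma of the Sox10 sort is 1 library, so the SE and p of every call in that sort, for all members, take the spread from the other groups. As ratios of mean FPKM, Cdh1 was 87.8-fold and 91.5-fold higher in fMaSC, and Cdh3 105-fold and 191-fold higher. These calls held in each of the 14 alternative settings of the CD24 sort and the 13 of the Sox10 sort.

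The low Cdh1 in stroma took the same order as the sum of the epithelial markers. As a share of the mean of Sox10+EpCAM+ fMaSC, Cdh1 stood at 1.09% in EpCAM-negative stroma and at 0.797% and 0.326% in the CD24low libraries. The summed epithelial markers stood at 0.777%, 0.501% and 0.338% in the same libraries, in the same order. Sox10, a marker in that sum, did not take this order. It had 0.493 FPKM in EpCAM-negative stroma and 1.55 and 0.848 FPKM in CD24low stroma. By the approximate depths, Cdh1 rested on about 72.6, 57.1 and 19.3 fragments in these libraries. Whether epithelial cells in the stromal fractions carry this Cdh1 was not tested.

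Cdh11 had the highest level of the 7 genes in each stroma library. It reached 51.5 and 41.1 FPKM in CD24low stroma, 38.6 FPKM in EpCAM-negative stroma, 15.7 and 35.9 FPKM in CD24+CD49f+ fMaSC, and 0.699 and 0.846 FPKM in Sox10+EpCAM+ fMaSC. The 2 CD24+CD49f+ libraries differed from each other by more than the stroma libraries did, and the higher one lay just below the lowest stroma library. The Sox10+EpCAM+ libraries were far below the rest.

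In the Sox10 sort Cdh11 was lower in fMaSC by limma, with a log2 difference of -4.48 (SE 0.46, adjusted p = 0.00146), and mean FPKM was 49.9-fold higher in the stroma library. In the CD24 sort the difference was -0.92 (SE 0.37, 95% interval -1.83 to -0.01, adjusted p = 0.194) and was not called. It was called without CD24+CD49f+ fMaSC replicate 2 (-1.49), a setting in which more of all genes tested were called than with all libraries. Over both sorts together, with the sort as a term, the difference was -2.34 (SE 0.72) and missed the threshold with an adjusted p of 0.0535 by limma. That value became -0.92 without the EpCAM-negative library (adjusted p = 0.193 by limma). It was called with quantile normalization (-2.44, adjusted p = 0.0463) and with TPM scaling without mitochondrial genes (-2.71, adjusted p = 0.0487). It was also called without CD24+CD49f+ fMaSC replicate 2 (-2.99), where many more of all genes tested were called than with all libraries.

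Cdh11 and the summed fibroblast markers took the same order over the fMaSC libraries. As a share of the mean of the CD24low libraries, the summed fibroblast markers stood at 29.3% and 47.4% in CD24+CD49f+ fMaSC and at 0.628% and 1.06% in Sox10+EpCAM+ fMaSC. Cdh11 stood at 34.0% and 77.6%, and at 1.51% and 1.83%. Col1a1, Col1a2 and Col3a1 made up most of the sum in CD24+CD49f+ fMaSC. Dpt, a marker in that sum, did not take this order, with 151 and 136 FPKM in CD24+CD49f+ fMaSC replicates 1 and 2. The other markers in the sum did, though Pdgfrb rose little there (9.11 and 10.5 FPKM). In bulk samples, fewer cells of a type and less RNA per cell cannot be told apart, and the part of fibroblast RNA in the Cdh11 level of the CD24+CD49f+ fraction was not tested.

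**Figure D2:**
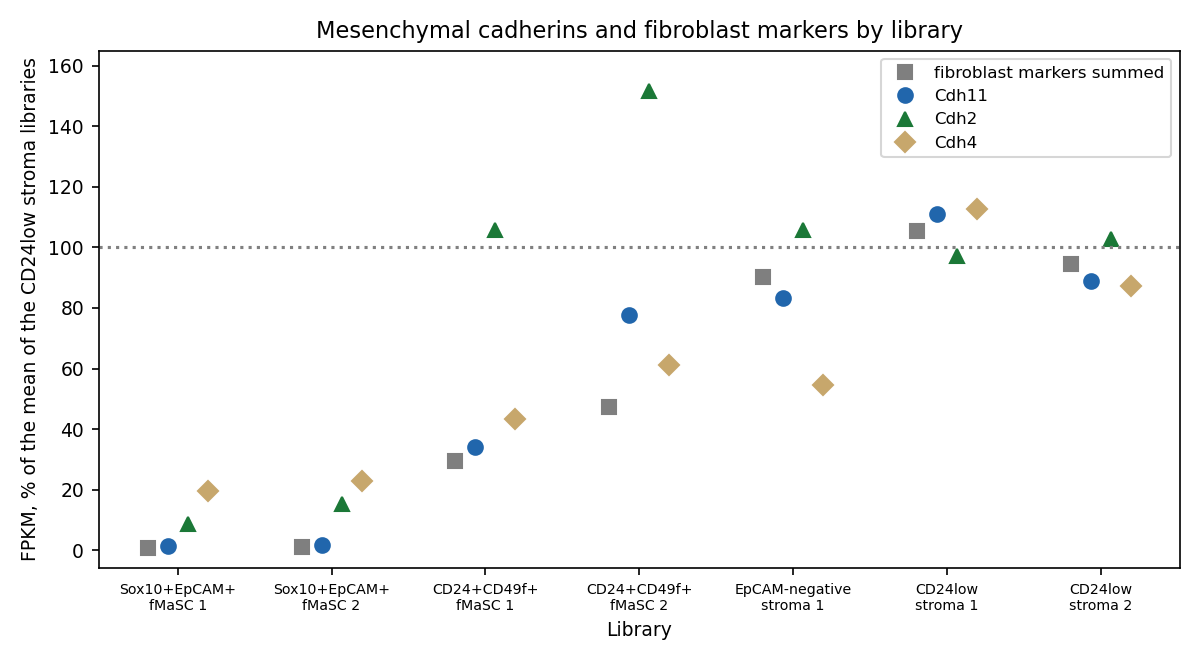
FPKM of Cdh11, Cdh2 and Cdh4 and of the 7 summed fibroblast markers in each library, as a percentage of their own mean in the CD24low stroma libraries (dotted line at 100%). In CD24+CD49f+ fMaSC replicate 1, Cdh11 (34.0%) lies near the fibroblast markers (29.3%), while Cdh2 lies at 106%. In replicate 2 of that group Cdh11 (77.6%) lies well above the fibroblast markers (47.4%), and Cdh2 lies at 152%. In both Sox10+EpCAM+ libraries Cdh11 is under 2% and Cdh2 at 8.60% and 15.3%.

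Cdh2 did not follow Cdh11 in the CD24+CD49f+ fraction. Its level was 4.37 and 6.27 FPKM there, 4.02 and 4.25 FPKM in CD24low stroma, 4.37 FPKM in EpCAM-negative stroma, and 0.356 and 0.631 FPKM in Sox10+EpCAM+ fMaSC. Both CD24+CD49f+ libraries lay above the CD24low libraries, and the Sox10+EpCAM+ libraries were far below all others. By limma the difference in the CD24 sort was 0.28 (SE 0.21, 95% interval -0.23 to 0.79, adjusted p = 0.463), which was not called. In the Sox10 sort it was -1.85 (SE 0.26, adjusted p = 0.00399), and mean FPKM was 8.86-fold higher in the stroma library.

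Of the 6 members tested, Cdh2 was the 1 whose fold was called different between the sorts (log2 difference of differences -2.14, SE 0.33, adjusted p = 0.0448 by limma), where 1.51% of all genes tested were called (0.0763% higher and 1.44% lower). This call was lost in 9 of 12 alternatives, where the adjusted p reached 0.330, and the direction was kept in all 12. The corresponding value for Cdh11 was -3.56 (SE 0.59, adjusted p = 0.0550), and neither Cdh1 (0.70, adjusted p = 0.420) nor Cdh3 (1.12, adjusted p = 0.267) was called. Cdh11 was called in 3 of 12 alternatives, as many as kept the Cdh2 call: with a pseudocount of 0.1 (-4.53, adjusted p = 0.0223) and without CD24+CD49f+ fMaSC replicate 1 (-4.13, adjusted p = 0.00447) or replicate 2 (-2.99, adjusted p = 0.0116). Cdh6 was called without CD24+CD49f+ replicate 1 (-1.82, adjusted p = 0.0228 by limma), and Cdh3 without replicate 2 (1.46, adjusted p = 0.0477). The standard error of this difference is larger than in either sort for each member tested, so that a missed call does not show the folds to be alike. Leaving out 1 library moved the number of all genes called here from 218 to between 5 and 966. All members' values here rest on the single EpCAM-negative library, whose spread is taken from the other groups.

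Markers of Schwann cells and melanoblasts moved with the CD24+CD49f+ fraction too. Their 6 genes summed to 94.8 and 50.0 FPKM in CD24+CD49f+ fMaSC, 17.6 and 26.5 FPKM in Sox10+EpCAM+ fMaSC, 9.07 and 7.01 FPKM in CD24low stroma and 1.07 FPKM in EpCAM-negative stroma, where Cdh19 and Mlana were listed at 0. The 5 endothelial markers summed to 12.2 and 17.4 FPKM in CD24+CD49f+ fMaSC, against 2.52 and 3.22 FPKM in Sox10+EpCAM+ fMaSC and 10.1 to 21.9 FPKM in stroma. They did not all take 1 order. Pecam1, Cdh5 and Kdr had higher means in CD24+CD49f+ fMaSC than in either stroma fraction, and Tek and Emcn had lower means. The part of these cell types in the Cdh2 level was not tested.

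Cdh13, known from vessels, smooth muscle and neurons, was highest in CD24+CD49f+ fMaSC. It stood at 2.10 and 2.40 FPKM there, 1.35 and 0.969 FPKM in CD24low stroma, 1.19 FPKM in EpCAM-negative stroma, and 0.362 and 0.639 FPKM in Sox10+EpCAM+ fMaSC. The EpCAM-negative value fell between the CD24low values. The limma difference was 0.60 (SE 0.18, 95% interval 0.15 to 1.04, adjusted p = 0.0993) in the CD24 sort and -0.55 (SE 0.22, 95% interval -1.09 to -0.01, adjusted p = 0.120) in the Sox10 sort, and neither was called. With only the groups compared in the fit, the Sox10 sort difference was called at the same fold of -0.55. Many more of all genes tested were called in that setting than with all libraries in the fit.

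Cdh6, a type II cadherin of the embryonic kidney and neural crest, was low and uneven. It was 1.07 and 3.18 FPKM in CD24+CD49f+ fMaSC, 1.06 and 0.795 FPKM in CD24low stroma, 0.975 FPKM in EpCAM-negative stroma, and 0.136 and 0.297 FPKM in Sox10+EpCAM+ fMaSC. CD24+CD49f+ replicate 2 was the highest, and replicate 1 of that group was level with CD24low stroma. By limma the difference was 0.61 (SE 0.33, 95% interval -0.20 to 1.43, adjusted p = 0.324) in the CD24 sort and -0.70 (SE 0.41, 95% interval -1.70 to 0.30, adjusted p = 0.242) in the Sox10 sort. It was called in the CD24 sort without CD24+CD49f+ fMaSC replicate 1 (1.12, adjusted p = 0.0220). In the Sox10 sort it was called without either CD24+CD49f+ library and with only the groups compared, at the same fold of -0.70. Many more of all genes tested were called in these Sox10 sort settings than with all libraries in the fit.

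Cdh4, a type I cadherin known from retina, brain and muscle, stayed under 1 FPKM in all 7 libraries and so was not among the genes tested. Its level was 0.904 and 0.700 FPKM in CD24low stroma, 0.347 and 0.491 FPKM in CD24+CD49f+ fMaSC, 0.438 FPKM in EpCAM-negative stroma, and 0.158 and 0.183 FPKM in Sox10+EpCAM+ fMaSC. CD24low stroma was the highest group and Sox10+EpCAM+ fMaSC the lowest. With no filter on low values, the limma difference was -0.34 (adjusted p = 0.147) in the CD24 sort, -0.30 (adjusted p = 0.161) in the Sox10 sort and -0.33 (adjusted p = 0.0443) over both sorts.

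Of the 6 members tested, 2 were called higher and none lower in fMaSC in the CD24 sort, where 10.7% of the 14418 genes tested were called (7.78% higher and 2.94% lower). In the Sox10 sort 2 were called higher and 2 lower, where 26.1% of all genes tested were called (12.5% higher and 13.6% lower). Over both sorts together 2 were called higher and none lower, against 25.1% of all genes (15.6% higher and 9.5% lower). The median log2 difference of the 6 was 0.60 in the CD24 sort and -0.63 in the Sox10 sort, beside 0.13 and 0.09 for all genes tested. Cdh1 and Cdh3 are among those called in each, with the limit of the filter given above. A like limit holds for Cdh2, Cdh6, Cdh11 and Cdh13, which were under 1 FPKM in both Sox10+EpCAM+ fMaSC libraries. They passed the filter only through other libraries, in which they are higher. Calls of them as lower in the Sox10 sort or between the fMaSC fractions thus describe them and add no independent support.

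**Figure D3:**
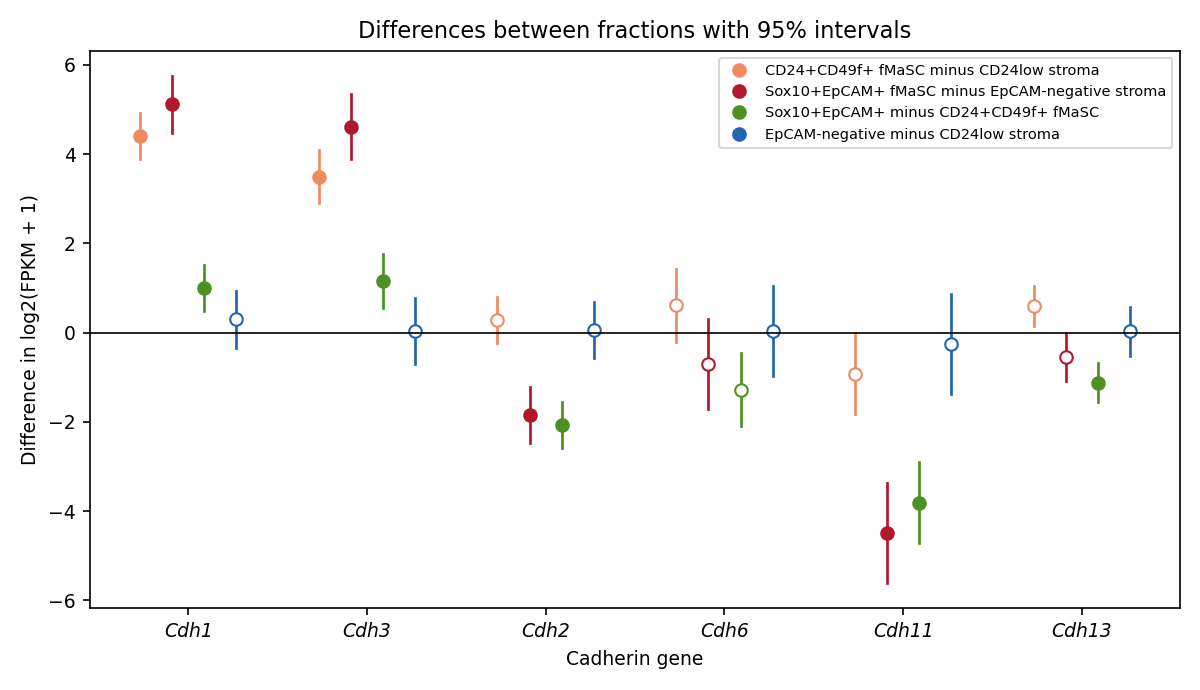
Differences in log2(FPKM + 1) for the 6 cadherins tested, in 4 comparisons, as points with 95% intervals. Filled points passed the adjusted threshold of 0.05 and open points did not; Cdh1 and Cdh3 are filled in both sorts, Cdh2 and Cdh11 in the Sox10 sort and between the fMaSC fractions, and no member is filled between the stroma fractions.

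Between the fMaSC fractions Cdh11 and Cdh2 had the largest differences of the 6 members tested. Sox10+EpCAM+ fMaSC had less Cdh11 than CD24+CD49f+ fMaSC (log2 difference -3.81, SE 0.37, adjusted p = 0.00334 by limma), less Cdh2 (-2.07, SE 0.21, adjusted p = 0.00358) and less Cdh13 (-1.12, SE 0.18, adjusted p = 0.0167). It had more Cdh1 (1.00, SE 0.21, adjusted p = 0.0402) and more Cdh3 (1.16, SE 0.25, adjusted p = 0.0396). For Cdh6 the limma difference was -1.28 (SE 0.33, adjusted p = 0.0696). In all, 2 members were called higher and 3 lower, where 9.99% of all genes tested were called (1.95% higher and 8.04% lower).

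These calls did not stand equally firm. The Cdh11 call held in all 14 alternatives and the Cdh2 call in 13 of them, lapsing without Sox10+EpCAM+ fMaSC replicate 1 (-1.94, adjusted p = 0.0555). The Cdh13 call was lost in 5 of 14, the Cdh3 call in 9 and the Cdh1 call in 11, with differences for Cdh1 between 0.75 and 1.16. Without Sox10+EpCAM+ fMaSC replicate 1 only Cdh11 remained called, and without Sox10+EpCAM+ fMaSC replicate 2 only Cdh11 and Cdh2. Without either CD24low library 3 were called.

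The stroma fractions did not separate on any of the 6 members tested. With limma, 0 of 6 were called, 0 of 6 had an unadjusted p under 0.05, and 0.0277% of all genes tested were called (0.0139% higher and 0.0139% lower). The EpCAM-negative minus CD24low difference was 0.30 for Cdh1 (95% interval -0.34 to 0.93), 0.07 for Cdh2 (-0.56 to 0.69) and -0.25 for Cdh11 (-1.37 to 0.87). The intervals are wide, since the EpCAM-negative group is 1 library, and do not show that the fractions are alike.

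Expressed as shares of the summed FPKM of the 7 cadherins, the fractions had different makeups. Cdh1 and Cdh3 together made up 97.8% and 97.2% in Sox10+EpCAM+ fMaSC, 58.0% and 48.2% in CD24+CD49f+ fMaSC, and 0.588% to 1.59% in stroma. Cdh2 and Cdh11 together made up 1.38% and 1.62%, then 35.7% and 45.3%, then 92.8% to 94.3%. The CD24+CD49f+ libraries held much RNA of both pairs of genes, and each other library was dominated by one pair. These shares do not depend on scaling between libraries.

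**Figure D4:**
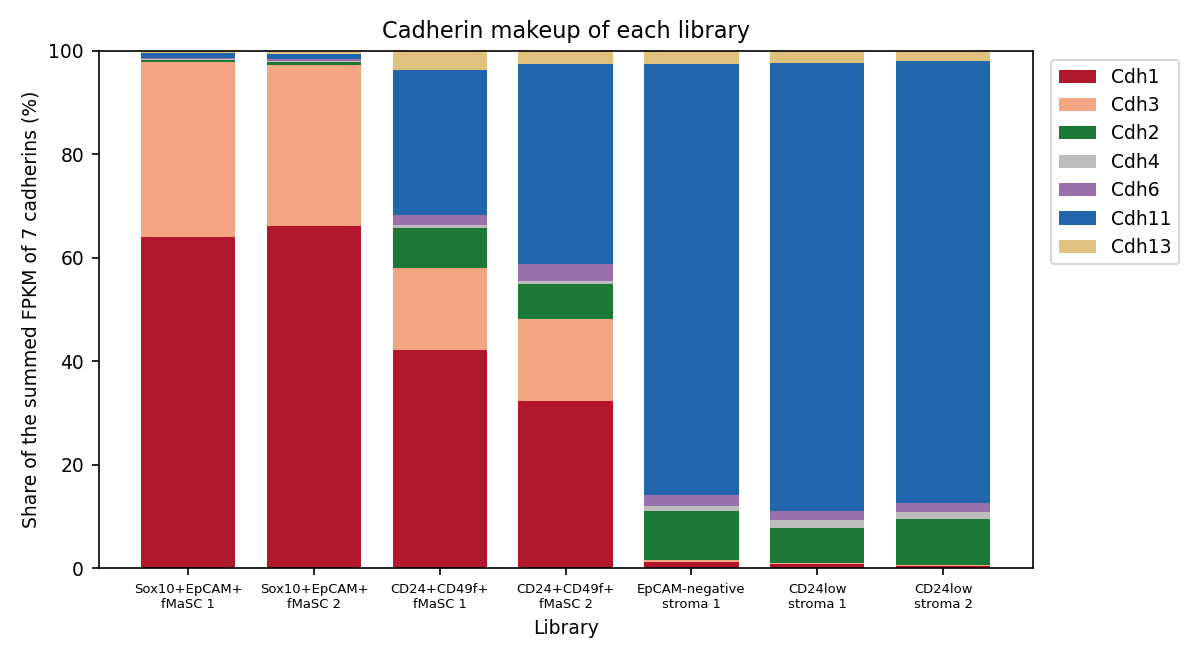
Stacked shares (%) of the summed FPKM of the 7 cadherins in each of the 7 libraries. Cdh1 and Cdh3 fill over 97% of the Sox10+EpCAM+ fMaSC bars, 58.0% and 48.2% of the CD24+CD49f+ fMaSC bars, and under 2% of the stroma bars, which Cdh11 dominates.

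Core catenins that bind the cadherin tails were present in all fractions. Ctnnb1 (beta-catenin) had 205 and 233 FPKM in Sox10+EpCAM+ fMaSC, 144 and 179 FPKM in CD24+CD49f+ fMaSC, 87.6 FPKM in EpCAM-negative stroma and 101 and 86.1 FPKM in CD24low stroma. Its limma difference was 0.78 (SE 0.25, adjusted p = 0.109) in the CD24 sort and 1.31 (SE 0.30, adjusted p = 0.0248) in the Sox10 sort. Ctnna1 (alpha-catenin) gave 0.77 (adjusted p = 0.0612) and 0.90 (adjusted p = 0.0387), and Ctnnd1 (p120-catenin) gave 0.57 (adjusted p = 0.333) and 0.74 (adjusted p = 0.205), by the same test. Ctnnb1, Ctnna1 and Ctnnd1 were named for their role as core catenins, after their values were seen.

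Of 25 adherens junction partners, 23 were tested, of which 9 were called higher and none lower in fMaSC in the CD24 sort (median log2 difference 0.75), and 13 higher and none lower in the Sox10 sort (median 0.90). Of all genes tested, 7.78% and 12.5% were called higher, with medians of 0.13 and 0.09. Among the 23, 4 were under 1 FPKM in all stroma libraries, so that they were tested only because of their level in fMaSC. Among the genes with the largest folds were Jup (plakoglobin, shared by adherens junctions and desmosomes; 2.44 and 3.00), Plekha7 (a p120-catenin binding protein; 2.15 and 3.08), and Pkp4 (a relative of p120-catenin; 2.19 and 2.54). Ctnnal1, related to alpha-catenin, was among the first 4 in the CD24 sort (2.27), and Nectin4, an adhesion receptor, in the Sox10 sort (2.86). The Jup call was lost in 2 of 14 alternatives in the CD24 sort and in 1 of 13 in the Sox10 sort, and the Pkp4 call in 1 of 14 and 1 of 13. Between the fMaSC fractions 3 were called higher in Sox10+EpCAM+ cells and none lower, beside 1.95% and 8.04% of all genes tested. They were Plekha7 (0.93), Nectin4 (0.86) and Ctnnd2 (delta-catenin, 0.80). These 3 calls were lost in 9, 10 and 11 of 14 alternatives.

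Desmosomes are junctions built on desmosomal cadherins, which anchor keratin filaments. Of 14 desmosome genes 8 were tested, and 7 were called higher in fMaSC in the CD24 sort (median 3.04) and all 8 in the Sox10 sort (median 3.64), beside 7.78% and 12.5% of all genes tested (medians 0.13 and 0.09). Of the 8, 7 were under 1 FPKM in all stroma libraries and entered the test only through the fMaSC libraries in which they are high, so these counts and medians are largely set by the filter on low values. Perp, a desmosomal membrane protein, gave 4.65 and 5.59. Pkp3 and Pkp1 (plakophilins) gave 4.20 and 5.48, and 3.19 and 3.70. Dsp (desmoplakin, which binds keratins) gave 3.73 and 4.57. Pkp3 (1.19) and Perp (1.13) were also called higher in Sox10+EpCAM+ than in CD24+CD49f+ fMaSC, beside 1.95% of all genes tested. Each call was lost in 8 of 14 alternatives.

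**Figure D5:**
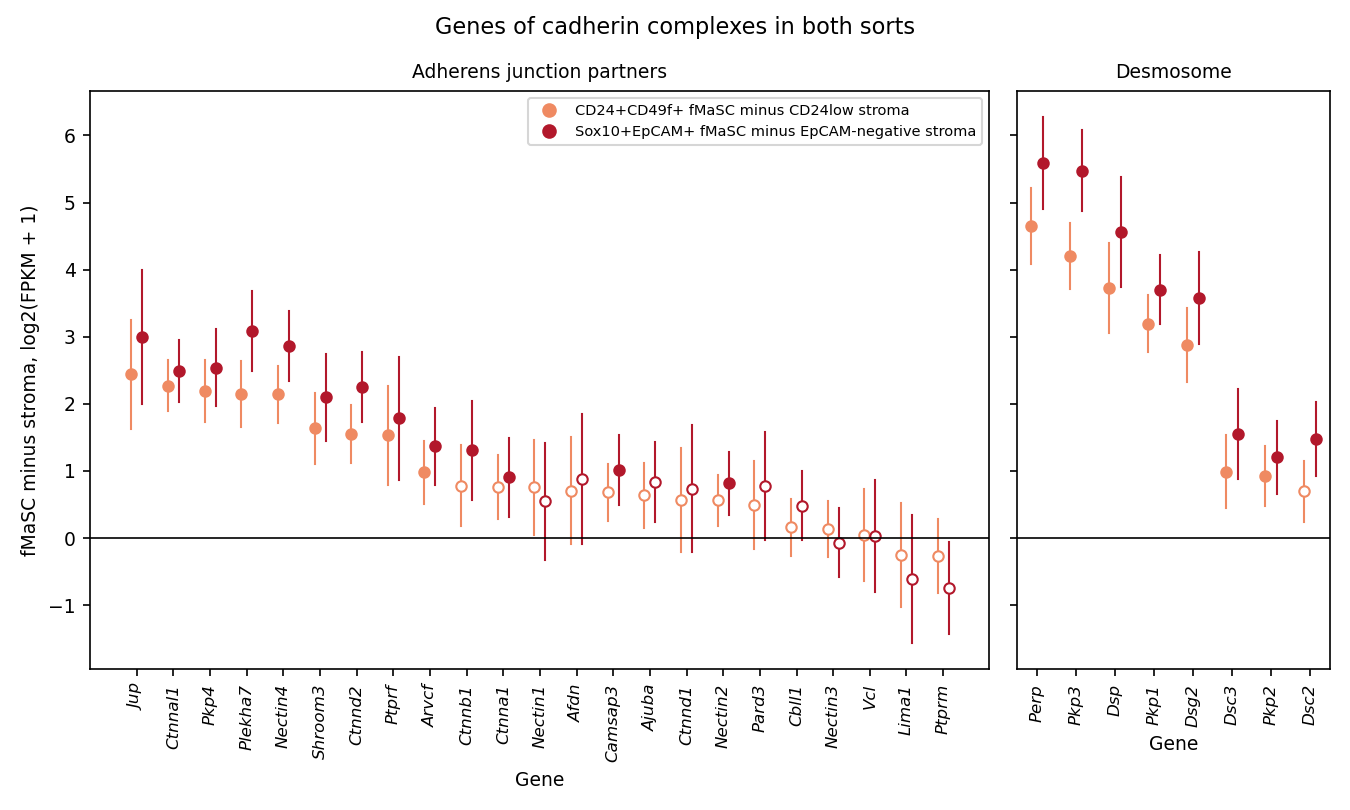
Differences in log2(FPKM + 1) between fMaSC and stroma in both sorts for 23 adherens junction partners and 8 desmosome genes, as points with 95% intervals (filled where the adjusted p passed 0.05). Perp, Pkp3 and Dsp lie highest among the desmosome genes, from 3.73 to 5.59, and no called gene of either list lies below 0.

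Of 31 other cadherin superfamily genes, 12 were tested. In the CD24 sort 3 were called higher in fMaSC and none lower (median 0.52), and in the Sox10 sort 3 higher and 2 lower (median 0.51), beside 10.7% and 26.1% of all genes tested called in either direction. Of the 12, 3 (Celsr1, Cdh19 and Fat2) were under 1 FPKM in all stroma libraries and were tested only because of their level in fMaSC. Apart from Celsr2, the genes called higher in either sort were among these 3. Celsr2 and Celsr1, cadherins of planar cell polarity, rose in both sorts (2.68 and 2.96 for Celsr2, 1.77 and 2.08 for Celsr1), though the Celsr1 call in the CD24 sort was lost in 2 of 14 alternatives, one of them without CD24low stroma replicate 2 (adjusted p = 0.0630 by limma). Fat4, a large protocadherin-like receptor, was lower in fMaSC in the Sox10 sort (-2.36) and Fat2 was higher (1.58), calls that were lost in 5 and 3 of 13 alternatives. Fat4 was under 1 FPKM in both Sox10+EpCAM+ fMaSC libraries and passed the filter only through other libraries. Cdh19, a cadherin of Schwann cell precursors, rose in the CD24 sort (2.24). Between the fMaSC fractions, Cdh19 (-2.29), the endothelial cadherin Cdh5 (-1.66) and Cdh10 (-1.03) were called lower in Sox10+EpCAM+ cells, and none was called higher. Of all genes tested, 8.04% were called lower and 1.95% higher in this comparison. The Cdh5 and Cdh10 calls were lost in 5 and 8 of 14 alternatives, and the Cdh19 call in none. All 3 were under 1 FPKM in both Sox10+EpCAM+ libraries, so they were tested only because of their level elsewhere. Cdh19 reached 1 FPKM only in the CD24+CD49f+ libraries, so its calls add no independent support.

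Transcription and splicing factors linked to epithelial cadherin divided by direction in the Sox10 sort. Of 21 listed genes 20 were tested, of which 12 were called higher and 1 lower in fMaSC in the CD24 sort (median 1.04), and 13 higher and 5 lower in the Sox10 sort (median 1.75). The shares over all genes tested were 7.78% higher and 2.94% lower, and 12.5% higher and 13.6% lower. Of the 20, 12 were under 1 FPKM in all stroma libraries and were tested only because of their level in fMaSC. Tfap2c (4.54 and 5.29) and the splicing factor Esrp1 (4.00 and 4.76) rose in both sorts, and Ovol1 (3.19) and Tfap2a (3.11) were next in the CD24 sort. Twist2 (-4.93) and Twist1 (-4.75), factors of mesenchymal cells known to repress Cdh1, fell in the Sox10 sort. Both were under 1 FPKM in the Sox10+EpCAM+ fMaSC libraries and were tested only because of their level elsewhere. The Twist1 and Twist2 folds were also called different between sorts, beside 1.51% of all genes tested. These calls were lost in 6 and 8 of 12 alternatives.

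Between the fMaSC fractions 8 of the 20 factors were called higher and 5 lower in Sox10+EpCAM+ cells, beside 1.95% and 8.04% of all genes tested. Zeb2 (-3.89), Twist1 (-3.89), Twist2 (-3.57) and Zeb1 (-2.83), which are known as repressors of Cdh1 or factors of mesenchymal cells, had the largest folds. Of these, Twist1, Twist2 and Zeb1 passed the filter only through libraries other than Sox10+EpCAM+ fMaSC, in which they are higher. The Zeb1 call was lost in 3 of 14 alternatives, among them those without either Sox10+EpCAM+ library (adjusted p = 0.0746 and 0.0575 by limma). Snai2, another known repressor of Cdh1, named here after its values were seen, went the other way. It had 50.0 and 42.0 FPKM in Sox10+EpCAM+ fMaSC, 31.1 and 39.8 FPKM in CD24+CD49f+ fMaSC, and 19.9 to 21.2 FPKM in stroma. Its limma difference was 1.09 (SE 0.25, adjusted p = 0.0239) in the Sox10 sort, 0.75 (adjusted p = 0.0724) in the CD24 sort and 0.37 (adjusted p = 0.357) between the fMaSC fractions. Snai3 and Snai1, also named after their values were seen, took opposite directions between the fMaSC fractions. Snai3 was called higher in Sox10+EpCAM+ cells (0.83, adjusted p = 0.0429 by limma), and Snai1 lower (-2.66, adjusted p = 0.0153). Snai3 passed the filter only through fMaSC libraries. The level of Zeb1 was 0.29 and 0.50 FPKM in Sox10+EpCAM+ fMaSC, 6.04 and 12.9 FPKM in CD24+CD49f+ fMaSC, 28.7 FPKM in EpCAM-negative stroma, and 24.0 and 18.7 FPKM in CD24low stroma. The fibroblast markers were likewise lowest in Sox10+EpCAM+ fMaSC, and all 7 were called lower there than in CD24+CD49f+ fMaSC; their part in the Zeb1 level was not tested. In the stroma comparison none of the genes of these 4 lists was called by limma, and 1 of them (a cadherin of the other superfamily list) had an unadjusted p under 0.05.

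Over the 7 libraries, the genes whose log2(FPKM + 1) was most like a cadherin's were found among 8516 genes with a group mean of 5 FPKM or more. With Cdh1 they were Gata3 (Pearson r = 0.9997) and Esrp1, and with Cdh3 they were Ceacam1 (r = 0.9997), Prrg4 and Crybg1. With Cdh11 they were Camk2d (r = 0.999), Shox2 and Gdf10, and with Cdh2 they were Ngfr (r = 0.996), Olfm2 and Dkk2. With Cdh6 they were Nr4a2 (r = 0.990), Prr11 and Cdc6, and with Cdh13 they were Cnn3 (r = 0.983), Lgi4 and Afap1l2. The points share groups and depth, the libraries fall into separate groups, and these values describe 7 points only. With a pseudocount of 0.1 the first gene stayed the same for all but Cdh3, for which Crybg1 came first.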

How the data were processed

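Per the labels' protocols, RNA from sorted cells was made into TruSeq libraries and sequenced as paired ends. The deposited values are FPKM per gene, 1 column per library, made by the authors with STAR and Cufflinks on GRCm38/mm10, per the submitters' processing notes, with no versions given. All 7 columns were used. FPKM was transformed to log2(FPKM + 1), and the 14418 entries with 1 FPKM or more in at least 2 libraries were fitted with limma 3.58.1 (R 4.3.3), with an empirical Bayes trend. The fit had 4 group means (3 residual degrees of freedom), or cell type and sort in the comparison over both sorts (4 residual degrees of freedom). P-values (two-sided) were adjusted over all genes tested by the Benjamini-Hochberg method, with 0.05 as the threshold. No count test was run, since the values are not counts. Depth was estimated from low values, of which 74.5% to 79.3% lay within 0.15 of a whole fragment. The depth was chosen for the best match on these same values. The 30% due by chance at a depth fixed beforehand is thus no baseline for it. Simulated data served to test the fit, with noise drawn at the raw gene variances and, added after recovery there was low, at the moderated variances. From each list, up to 4 called genes with the largest folds were named per comparison, and for each tested cadherin the 3 genes most like it, of which 1 is not reported here. The cadherins, the lists and the tests were chosen with earlier results of these data known. The labels call the libraries biological replicates, and replicate numbers follow the series order. Figures were made with Python 3.11.15 and matplotlib 3.10.9.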

Additional observations from a re-analysis of the deposited data

Results flagged for a closer look

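The fold of Cdh2 between fMaSC and stroma differed between the sorts, with a log2 difference of -2.14 (adjusted p = 0.0448 by limma): it was 0.28 in the CD24 sort and -1.85 in the Sox10 sort. The call was lost in 9 of 12 alternatives, and the difference rests on the single EpCAM-negative library.

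A reporter sequence added to the reference, which no comparison used, stood at 202 and 211 FPKM in the Sox10+EpCAM+ fMaSC libraries, at 0.660 FPKM in EpCAM-negative stroma and at 0.0531 to 0.131 FPKM in the other 4 libraries. It was high in both libraries sorted on the Sox10-Venus reporter and in no other.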

How the results depend on the processing

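No paired analysis was possible because the replicate numbers follow only the order of the series and pair no libraries. The numbers of cadherins called in the CD24 sort (2, range 2 to 3), the Sox10 sort (4, range 4 to 6), both sorts together (2, range 2 to 3) and the stroma fractions (0 in every setting) stayed within 1.5 times their value. Between the fMaSC fractions the count of 5 became 2 with no filter on low values, 2 with TPM scaling, 2 with TPM scaling without mitochondrial genes and 3 with only the groups compared, and was 1 to 5 when single libraries were left out. For the difference between sorts the count of 1 became 2 with a pseudocount of 0.1, and 0 with no filter, either TPM scaling, quantile normalization or no trend, and was 0 to 3 when single libraries were left out. The causes were not tested.

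Directions reversed only for differences that were not called. Over both sorts, Cdh2 became 0.28 without the EpCAM-negative library (-0.89 to 0.28 over single libraries left out). Cdh6 became -0.16 (pseudocount 0.1), -0.11 (TPM), -0.081 (TPM without mitochondrial genes), -0.30 (without CD24+CD49f+ fMaSC replicate 2) and -0.095 (without CD24low stroma replicate 2), and ran from -0.30 to 0.61 with single libraries left out. Cdh13 became -0.12, -0.085, -0.012 and -0.042 in the last 4 of these settings, and ran from -0.042 to 0.60. Between the stroma fractions, leaving out CD24low stroma replicate 2 gave -0.063 for Cdh6 and -0.10 for Cdh13, and leaving out replicate 1 gave 0.14 and 0.15; Cdh11 became 0.028 with TPM scaling. Of 1292 gene-level values, 1130 kept direction and call, 133 lost the call, 16 gained it and 13 reversed.

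TPM scaling moved the median difference of all genes from 0.13 to -0.11 in the CD24 sort and from 0.09 to -0.59 in the Sox10 sort. It moved the split of calls in the Sox10 sort from 1803 higher and 1959 lower to 578 and 1550, over both sorts from 2252 and 1369 to 791 and 927, between the fMaSC fractions from 281 and 1159 to 13 and 412, and for the difference between sorts from 11 and 207 to 9 and 34. Quantile normalization moved the CD24 sort from 1121 and 424 to 855 and 772. With single libraries left out, calls over all genes ran from 425 to 2351 in the CD24 sort, 1726 to 5673 in the Sox10 sort, 1542 to 6372 over both sorts, 238 to 2503 between the fMaSC fractions and 5 to 966 for the difference between sorts, whose split of 11 higher and 207 lower became 5 and 2 without Sox10+EpCAM+ fMaSC replicate 1. Low values rest on fewer fragments and are less precise, to a degree that differs by gene. By the approximate depths, Cdh3 had about 11.3 to 17.0 fragments per stroma library. Cdh4, at 0.904 FPKM in CD24low stroma replicate 1, had about 171.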
